A study of Mus musculus with 282 samples.

Results

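Livers without a functional molecular clock but with a feeding rhythm were compared directly with livers that kept the clock but lost the feeding rhythm. The comparison used 36 of the 282 liver libraries of the series. The 18 BMKO libraries came from mice with a whole-body knockout of Bmal1 (gene symbol Arntl) that had food only at night, and the 18 wild-type (WT) libraries came from mice fed arrhythmically, without a day-night pattern of food. Both groups were uninjected male C57BL/6J mice kept singly in a light-dark cycle of 12 h and 12 h with water always present, and each was sampled at zeitgeber time (ZT, hours after lights on) 2, 6, 10, 14, 18 and 22 with 3 biological replicates per time. Libraries were chosen by these labels alone. The arms differ in genotype and in feeding at once, so the part of each factor in a difference between them cannot be told apart. The knockout was of the whole body, so liver-specific and systemic consequences cannot be told apart either, and no source used here gives ages. Food intake is not among the values, so the loss of the feeding rhythm rests on the labels.

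The hepatic clock is a transcriptional loop. BMAL1 and its partner CLOCK bind E-boxes and activate the Period, Cryptochrome and REV-ERB genes, whose products repress the activators or the Arntl gene itself, and the same factors time many liver outputs. Food acts on the liver by other routes as well: insulin, the sterol-regulated SREBP factors, FOXO factors, the unfolded protein response of the endoplasmic reticulum (ER) and body temperature follow meals, and glucocorticoids follow the central clock of the brain together with meal time.

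Values are reads per M reads (RPM, M being 10 to the power of 6), not divided by transcript length because the kit reads the 3′ ends of transcripts only. Depth was 2.18 to 12.6 M reads per library in BMKO and 7.09 to 11.8 M in WT. Only 2 libraries had fewer than 3 M reads, BMKO ZT 6 replicate 1 (2.81 M) and BMKO ZT 22 replicate 3 (2.18 M). The ZT 6 library also stood apart, with a median correlation of 0.837 with the rest of its arm. Summed hepatocyte markers were 35725, 56847 and 68077 RPM (lowest, median and highest library) in BMKO livers, against 74053, 96809 and 117464 RPM in WT livers, and the 2 ranges did not overlap. That gap was carried by 1 gene, Alb (albumin), with a mean of 13593 RPM in BMKO livers and 62555 RPM in WT livers, and the means of the other 9 markers added up to 43719 RPM in BMKO livers and 35499 RPM in WT livers. The cholangiocyte marker sum was 39.1, 59.6 and 82.7 RPM in BMKO livers, against 15.5, 25.5 and 37.9 RPM in WT livers, mostly Sox9 (mean 53.1 RPM in BMKO and 17.4 RPM in WT), while Spp1 differed the other way (3.49 RPM in BMKO and 7.35 RPM in WT). Kupffer, endothelial and stellate cell marker sums had medians of 227, 300.04 and 291 RPM in BMKO livers, against 283, 372 and 373 RPM in WT livers. Their members did not all go 1 way. Daily means were called higher in BMKO for 2 of 12 Kupffer, 3 of 10 endothelial and 2 of 9 stellate markers tested. They were called lower for 7, 6 and 5. Over all genes tested, 34.1% were called higher and 38.5% lower. The stellate marker Dcn had a mean of 107 RPM in BMKO and 228 RPM in WT, while Ecm1 went the other way (87.7 and 39.1 RPM). Lymphocyte marker sums had medians of 8.08 RPM in BMKO livers, against 16.8 RPM in WT livers. No marker was at 0 in all libraries, and none fell in the groups described below with a rhythm in 1 arm only or in both. By the test of an arm alone, 1 hepatocyte and 1 endothelial marker were called rhythmic in BMKO. In WT, 1 hepatocyte, 1 stellate and 1 cholangiocyte marker were. A rhythm difference was called for 1 hepatocyte and 1 stellate marker. The shares of all genes tested were 5.77% in BMKO, 8.09% in WT and 6.72% for the difference. The part of cell composition in the results was not tested. In bulk liver, fewer cells of a type and less RNA per cell cannot be told apart.

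Of 12304 genes tested, 710 (5.77%) had a 24 h rhythm in BMKO livers and 996 (8.09%) in WT arrhythmic livers at an adjusted p under 0.05 (limma joint test of the cosine and sine terms, each arm with its own spread, Benjamini-Hochberg adjustment). The 2 lists shared 182 genes, 25.6% of the BMKO list and 18.3% of the WT list. The order of the 2 counts is not firm: it was 1885 in BMKO against 378 in WT when the arms shared a spread, 1207 against 1003 without the 2 shallow libraries, 1302 against 1264 with DESeq2 on recovered reads, and 542 against 435 without replicate 1. The median spread between replicates (SD, log2) was 0.424 in BMKO and 0.262 in WT. Since a gene called in 1 arm and missed in the other need not differ, a rhythm was counted as present in 1 arm only when the difference between the arms was itself called and the amplitude was larger in that arm. Such differences were called for 827 genes (6.72%), with the larger amplitude in BMKO for 585 (4.75%) and in WT for 242 (1.97%).

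By this rule 307 genes (2.5% of those tested) had a rhythm in BMKO only and 187 (1.52%) in WT only. Another 221 BMKO rhythms and 627 WT rhythms were called in 1 arm without a called difference, so they are assigned to neither group. Absence here means a rhythm that was not called: 224 of the 307 genes also had an unadjusted p above 0.05 in WT, and 129 of the 187 in BMKO. Amplitude is the distance from daily mean to peak in log2. The BMKO-only genes had median amplitudes of 0.62 in BMKO and 0.17 in WT, and the WT-only genes 0.23 in BMKO and 0.52 in WT, which the class rule itself fixes. Across all genes tested the medians were 0.24 in BMKO and 0.15 in WT. Without the shallow libraries 501 genes were BMKO only and 255 WT only, and without replicate 2 of every time point the counts were 32 and 33.

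**Figure D1:**
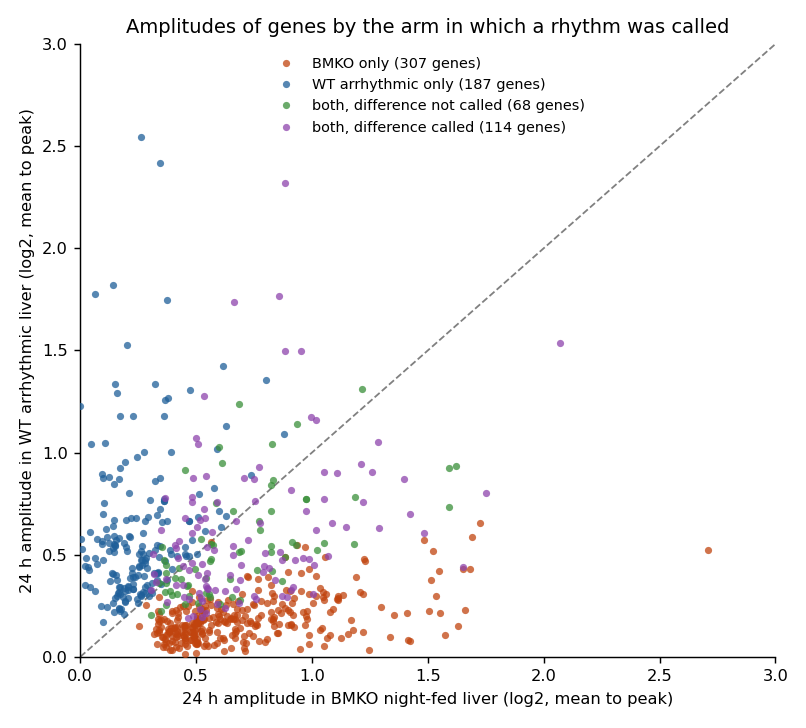
Amplitude of the 24 h rhythm in BMKO livers (horizontal axis, log2) against WT arrhythmic livers (vertical axis, log2), 1 point per gene, coloured by rhythm class. The dashed line marks equal amplitudes; the 187 WT-only genes lie above it and the 307 BMKO-only genes under it, as the class rule sets, and the 182 genes of both arms lie on either side.

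Arntl itself (chromosome 7, 113207465 to 113314126, GRCm38) was measured first. It had 6.09, 9.81 and 17.0 RPM (lowest, median and highest of 18 libraries) in BMKO livers, against 0.718, 7.85 and 21.4 RPM in WT arrhythmic livers. The sources used here do not say which stretch of the gene is deleted, and 3′ reads from outside it would still be counted, so these reads do not check the genotype. What differs is the daily course: the amplitude was 0.14 ± 0.14 (SE) in BMKO and 1.82 ± 0.13 in WT, where Arntl peaked at ZT 20.4 ± 0.27 h (adjusted p of the difference 2.16e-06). At ZT 6 the 3 BMKO libraries had 10.7, 11.9 and 6.09 RPM and the 3 WT libraries 1.27, 1.81 and 0.718 RPM. The daily mean was 0.76 ± 0.13 log2 higher in BMKO (adjusted p 9.74e-06).

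Clock genes cycled mainly in the arm with intact Bmal1. Of 22 clock and clock output genes, 19 were rhythmic in WT arrhythmic livers and 5 in BMKO livers, against 8.09% and 5.77% of all genes tested. The difference was called for 17, against 6.72% of all genes, with the larger amplitude in WT for 15 of them (1.97% of all genes). Their median amplitude was 0.23 in BMKO and 1.203 in WT, against 0.24 and 0.15 over all genes. The rhythm was WT only for 13 genes, against 1.52% of all genes. Among the 13 were Arntl, Clock, Npas2, Per3, Cry1, Nr1d1, Nr1d2, Ciart, Dbp, Tef, Bhlhe41 and Wee1. The WT-only count was 15 without the shallow libraries and 11 without replicate 2.

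Among the activators, Npas2, a CLOCK paralog, had 5.58, 9.48 and 13.4 RPM in BMKO livers, against 0, 0.256 and 3.09 RPM in WT livers. Every BMKO library was above every WT library, and only the WT arm cycled, with amplitudes of 0.16 ± 0.10 in BMKO and 1.29 ± 0.11 in WT (adjusted p of the difference 3.13e-06). Clock had amplitudes of 0.14 ± 0.10 in BMKO and 0.53 ± 0.05 in WT (adjusted p 0.00104, and 0.0936 without replicate 2).

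Among the repressors, Nr1d1, which encodes REV-ERB alpha and represses Arntl and Npas2, had 0, 1.22 and 4.52 RPM in BMKO livers, against 0.413, 5.71 and 37.1 RPM in WT livers. Its amplitude was 0.34 ± 0.25 in BMKO and 2.42 ± 0.12 in WT, with the WT peak at ZT 5.74 ± 0.19 h (adjusted p 2.52e-05). Cry1, a Cryptochrome repressor, had 34.9, 60.8 and 89.9 RPM in BMKO livers, against 4.75, 18.2 and 41.0 RPM in WT livers. The BMKO libraries lay high all day, 1.93 ± 0.10 log2 above WT in the daily mean (adjusted p 3.05e-17). The Cry1 amplitude was 0.37 ± 0.09 in BMKO and 1.26 ± 0.09 in WT (adjusted p of the difference 0.000182). Per3, a Period gene, had amplitudes of 0.38 ± 0.20 in BMKO and 1.75 ± 0.14 in WT (adjusted p 8.43e-06). Nr1d2, the REV-ERB beta gene, had 0, 3.76 and 7.16 RPM in BMKO livers, against 10.2, 51.4 and 113 RPM in WT livers, groups that did not overlap. The lower level is called (adjusted p 6.55e-16), whereas the rhythm difference (adjusted p 0.0311) was lost under 6 alternatives, among them each replicate left out.

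Outputs followed the same division. Dbp, a PAR bZIP factor transcribed directly by the clock, had 2.22, 4.45 and 12.7 RPM in BMKO livers, against 1.21, 13.9 and 97.6 RPM in WT livers. At ZT 10 the libraries held 8.55, 4.78 and 3.49 RPM in BMKO and 47.9, 97.6 and 95.6 RPM in WT. At ZT 22 they held 2.83, 4.45 and 4.36 RPM in BMKO and 1.31, 1.21 and 1.79 RPM in WT, so that the WT arm spanned the flat BMKO level from both sides. Dbp amplitudes were 0.26 ± 0.16 in BMKO and 2.55 ± 0.17 in WT (adjusted p 6.18e-08). Tef, a related PAR bZIP gene, had 77.7, 99.9 and 127 RPM in BMKO livers and 36.1, 102 and 228 RPM in WT livers, a flat and a cycling course around about the same level (mean difference 0.17 ± 0.08 log2, adjusted p 0.0581). Bhlhe41, a DEC repressor, had no read in any BMKO library, against 0.238, 1.79 and 10.8 RPM in WT livers. With 3 reads over the 18 BMKO libraries as the floor, its mean was at least 164-fold lower in BMKO. The rhythm difference of such a gene has no counting support in BMKO, and edgeR and DESeq2 did not call it (adjusted p 1 and 0.633), nor was it called without replicate 2 or 3 (0.211 and 0.0579). They did not call Ciart either, a BMAL1-CLOCK repressor with a median of 0 in BMKO (0.35 and 0.123).

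The clock lists also held genes that did not follow this division. Per1, an immediate responder to cAMP and glucocorticoid signals as well as a clock repressor, cycled in both arms without a called difference and is described with the shared rhythms. Bhlhe40, the other DEC gene, was the single clock gene with a BMKO-only rhythm, with amplitudes of 0.77 ± 0.11 in BMKO (peak ZT 19.3 h) and 0.33 ± 0.14 in WT (adjusted p 0.00234, and 0.141 without replicate 1). Noct, a rhythmic NADP phosphatase, had 0, 2.14 and 18.7 RPM in BMKO livers, against 1.22, 11.9 and 45.2 RPM in WT livers. It cycled in both, by 2.07 ± 0.17 with a peak at ZT 16.3 h in BMKO and by 1.54 ± 0.17 with a peak at ZT 12.2 h in WT (adjusted p 1.58e-05). Per2 peaked at ZT 16.9 ± 0.52 h in BMKO and ZT 13.1 ± 0.48 h in WT (adjusted p 0.00482, and 0.107 and 0.141 without replicates 1 and 2). Usp2, a deubiquitinase gene, had amplitudes of 0.88 ± 0.16 in BMKO and 2.32 ± 0.17 in WT (adjusted p 0.000141). Cry2 and Nfil3 were called in WT without a called difference (adjusted p 0.0758 and 0.0646), and Rora and Hlf in neither arm.

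**Figure D2:**
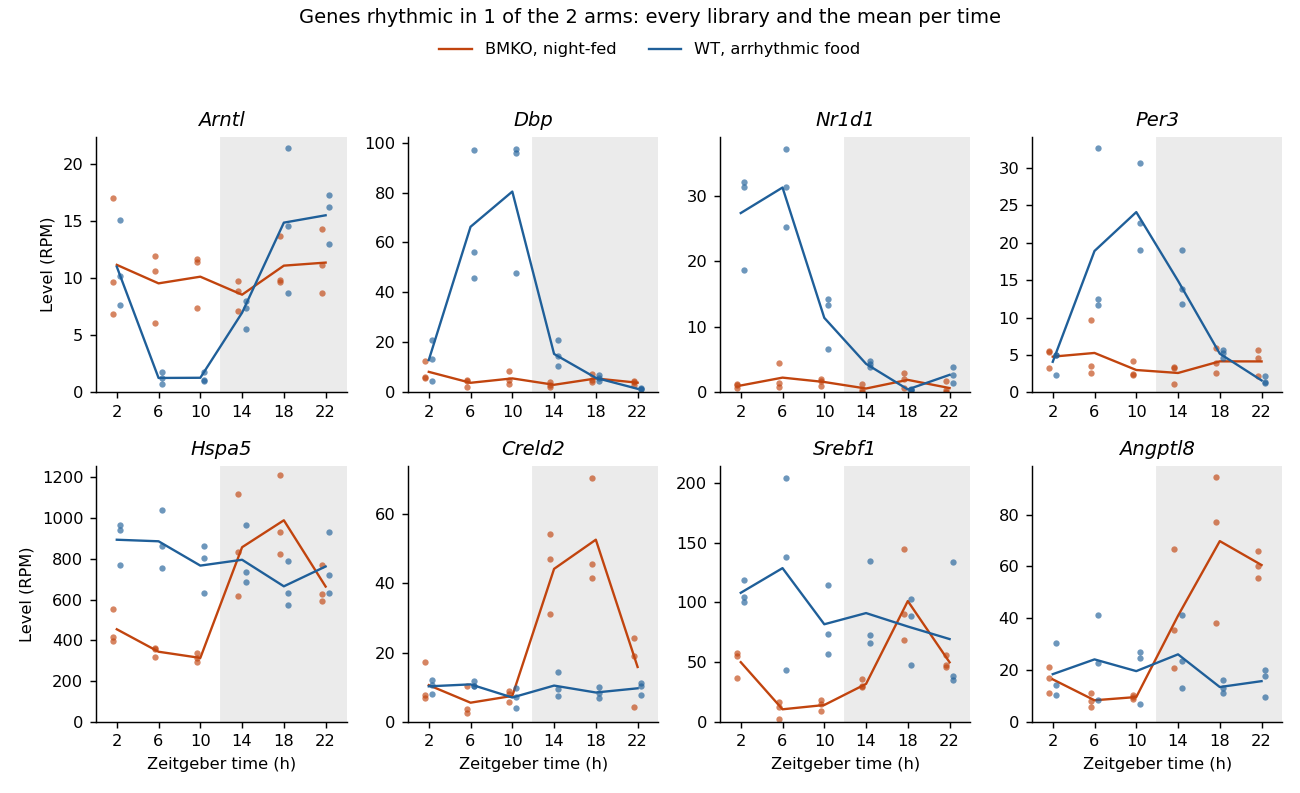
RPM (vertical axes, from 0) against zeitgeber time (horizontal axes, h) for 8 genes with a rhythm in 1 arm only. Points are single libraries, 3 per time and arm, lines join the means, and grey marks the dark phase. Arntl, Dbp, Nr1d1 and Per3 rise and fall in WT arrhythmic livers alone, and Hspa5, Creld2, Srebf1 and Angptl8 in BMKO night-fed livers alone.

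The E-box CACGTG was looked for in promoter windows of 300 bases, 250 before and 50 after the annotated start, from RefSeq (GRCm38.p6), which matched 8990 of the 12304 genes. The letters occurred in 10.5% of all matched promoters, in 13.8% of BMKO-only, 12.7% of WT-only and 7.41% and 9.76% of shared promoters without and with a called difference. Sites of 4 clock genes are shown because the same letters lie before Per1, with a rhythm in both arms, and before 3 genes with a WT-only rhythm. Ciart, also WT only, held the letters too and is not printed. The letters were absent from the windows of Arntl, Clock, Npas2, Per3, Nr1d1, Nr1d2 and Dbp, which had a WT-only rhythm as well. Sites outside the windows were not searched. The E-box is in capitals with 10 bases on each side.
Per1 chr11:69098773-69098798 plus strand: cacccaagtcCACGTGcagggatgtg
Cry1 chr10:85185099-85185124 minus strand: tgccggtggtCACGTGgggtgcatgc
Tef chr15:81802536-81802561 plus strand: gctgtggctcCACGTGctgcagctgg
Bhlhe41 chr6:145865558-145865583 minus strand: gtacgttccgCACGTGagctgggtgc

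Outside the clock lists, the WT-only genes of large amplitude difference were Lpin1, Nrg4, Dtx4 and Pcsk4, the last not called without replicate 2 or 3 (adjusted p up to 0.158). Dtx4, an E3 ubiquitin ligase gene, had 45.8, 57.0 and 72.0 RPM in BMKO livers, against 2.68, 12.2 and 21.3 RPM in WT livers, with no overlap. Its amplitude was 0.05 ± 0.07 in BMKO and 1.04 ± 0.08 in WT (adjusted p 1.57e-07), and its level was 2.43 ± 0.07 log2 higher in BMKO. Lpin1, a phosphatidate phosphatase, had amplitudes of 0.20 ± 0.16 in BMKO and 1.53 ± 0.17 in WT (adjusted p 0.00235, but 0.0516 with cosine regression and 0.0704 without replicate 1). Nrg4, a growth factor gene, had a lower daily mean in BMKO (−1.36 ± 0.17 log2) and amplitudes of 0.15 ± 0.19 in BMKO and 1.33 ± 0.15 in WT (adjusted p 0.000528, and 0.0697 without replicate 2). Metabolic genes with a WT-only rhythm included Elovl3 and Fads2 of fatty acid synthesis, Slc10a1, the sodium-bile acid cotransporter, and Foxo3. The call for Slc10a1 was lost without any 1 of the 3 replicate numbers (adjusted p up to 0.193), and that for Foxo3 without replicate 2 or 3 (up to 0.391).

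The daily level of the WT-only genes differed with their peak time. Of 96 genes with a WT peak from ZT 4 to 16, 30 had a higher and 51 a lower daily mean in BMKO (median −0.30 log2). Of these, 4 were higher and 13 lower at ZT 4 to 8 (median −0.75), and 8 and 16 at ZT 8 to 12 (−0.36). The 48 genes with a peak at ZT 12 to 16 were nearly balanced, with 18 higher and 22 lower (−0.15). Of 91 genes with a WT peak from ZT 16 to 4, 64 were higher and 12 lower in BMKO (median 0.73 log2). Over all genes tested 34.1% were higher and 38.5% lower, with a median of −0.06 (−0.12 with DESeq2 size factors, and 0.00106 over genes of at least 5 RPM). Npas2, Cry1 and Dtx4 belong to the late group, and Nr1d1, Dbp and Per3 to the early group.

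**Figure D3:**
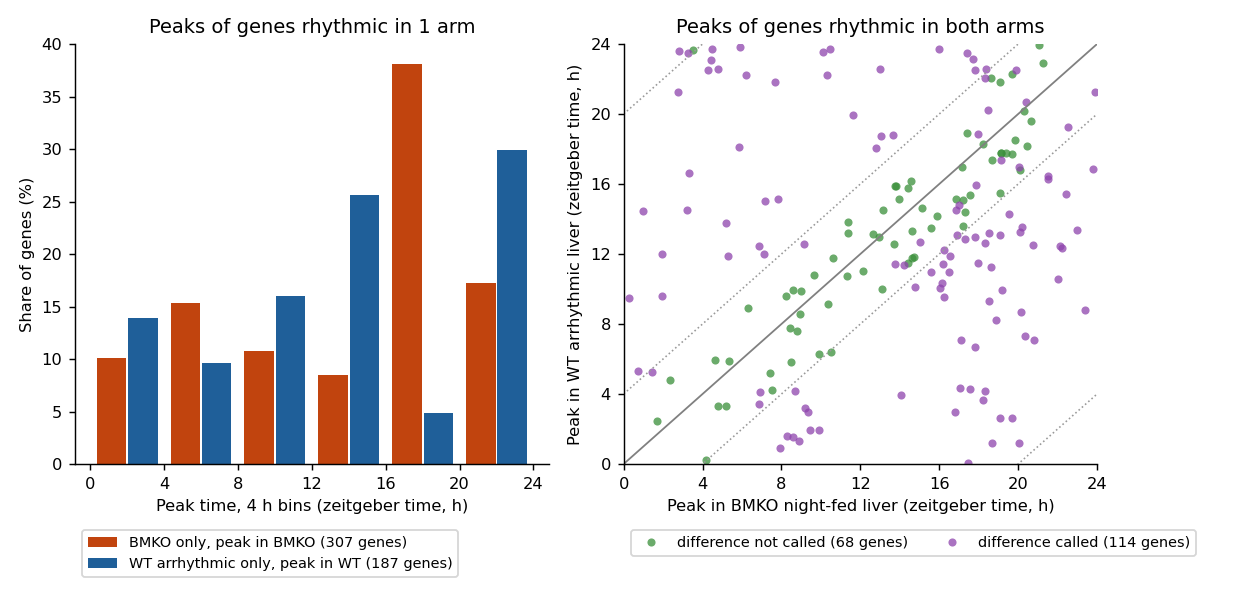
Left, share of genes (vertical axis, percent) by peak time in 4 h bins (horizontal axis, ZT) for BMKO-only genes at their BMKO peak and WT-only genes at their WT peak. The bin ZT 16 to 20 holds 38.1% of BMKO-only and 4.81% of WT-only genes. Right, peak in BMKO (horizontal axis) against peak in WT arrhythmic livers (vertical axis) for genes rhythmic in both arms, split by whether the difference was called; the solid line marks equal peaks and the dotted lines 4 h to either side.

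BMKO-only rhythms peaked most often in the middle of the dark phase. These mice had food at night, and its part in the peak times was not tested. Of the 307 genes, 117 (38.1%) peaked at ZT 16 to 20 and 53 (17.3%) at ZT 20 to 24. The peak at ZT 16 to 20 was not particular to this class. Among shared rhythms with a called difference, 42 of 114 (36.8%) peaked at ZT 16 to 20 in BMKO. Without a called difference, 18 of 68 (26.5%) did. WT-only peaks were most frequent at ZT 20 to 24 (56 of 187, 29.9%) and ZT 12 to 16 (48, 25.7%), and 9 (4.81%) fell at ZT 16 to 20.

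Genes of the ER chaperone and unfolded protein response list were the largest listed group among the BMKO-only rhythms. Of 31 genes, 17 were rhythmic in BMKO livers and 4 in WT livers, against 5.77% and 8.09% of all genes tested. The difference was called for 19, against 6.72% of all genes, with the larger amplitude in BMKO in all 19 (4.75% of all genes). The rhythm was BMKO only for 15, against 2.5% of all genes. The 15 BMKO-only genes were Atf6, Calr, Creld2, Dnajb11, Dnajb9, Dnajc3, Hsp90b1, Hspa5, Hyou1, Manf, Pdia3, Pdia6, Sdf2l1, Ssr1 and Syvn1. They encode the sensor ATF6, chaperones and co-chaperones, disulfide isomerases and a ubiquitin ligase that removes misfolded proteins. The count was 19 without the shallow libraries, and 11, 2 and 8 without replicates 1, 2 and 3, so its size rests on all replicates being present. The daily means did not shift in 1 direction, with 11 genes higher and 8 lower in BMKO, against 34.1% and 38.5% of all genes.

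Hspa5 (chromosome 2, 34771970 to 34777547), which encodes BiP, the central chaperone of the ER, had 294, 574 and 1209.8 RPM in BMKO livers, against 573, 779 and 1039.8 RPM in WT livers. The BMKO libraries were low at ZT 10, with 311, 294 and 335 RPM against 802, 863 and 634 RPM in WT. They were high at ZT 18, with 825, 932 and 1209.8 RPM against 787, 573 and 634 RPM in WT. Amplitudes were 0.83 ± 0.09 in BMKO, with a peak at ZT 18.2 ± 0.40 h, and 0.18 ± 0.07 in WT (adjusted p of the difference 3.96e-06, and at most 0.00422 under any alternative run). Although it cycled, the Hspa5 daily mean was lower in BMKO (−0.53 ± 0.08 log2, adjusted p 1.32e-06).

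Creld2, an ER stress gene for a disulfide isomerase-like protein, had 2.58, 13.8 and 70.5 RPM in BMKO livers, against 3.92, 9.98 and 14.4 RPM in WT livers. At ZT 14 its libraries had 46.9, 31.3 and 54.3 RPM in BMKO, against 7.51, 14.4 and 9.42 RPM in WT, with no overlap. The amplitude was 1.63 ± 0.22 in BMKO and 0.15 ± 0.11 in WT (adjusted p 0.000198). Hyou1, an ER chaperone of the heat shock 110 family, had amplitudes of 1.35 ± 0.20 in BMKO and 0.20 ± 0.09 in WT (adjusted p 0.000425, and 0.0726 without replicate 2). Calr, the calcium-binding chaperone calreticulin, had smaller amplitudes of 0.43 ± 0.08 in BMKO and 0.24 ± 0.07 in WT with peaks at ZT 22.4 h and ZT 8.23 h (adjusted p 0.000295, and 0.0918 without replicate 2). Herpud1, which assists ER-associated degradation, cycled in both arms, by 0.82 ± 0.14 in BMKO and 0.71 ± 0.06 in WT (adjusted p of the difference 0.565).

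The ER stress element, bound by ATF6 with the factor NF-Y, was searched as CCAAT, 9 bases of any kind and CCACG on both strands of the same promoter windows. It occurred in 15 of 8990 promoters (0.167%), 8 of them among the 240 matched BMKO-only genes (3.33%) and none among the 142 WT-only or the 136 shared genes. The 8 genes were Acacb, the mitochondrial acetyl-CoA carboxylase, and 7 genes of the ER list. The other 7 promoters belonged to Canx, Hnrnpa3, Pan2, Xlr3a, Acnat2, Derl3 and Alg12. D-box, ROR, heat shock and cAMP elements were searched in the same windows too. They occurred in 1.25%, 1.67%, 5% and 2.5% of BMKO-only promoters. In WT-only promoters the shares were 0.704%, 2.82%, 5.63% and 0%, and in all matched promoters 1.5%, 2.12%, 5.64% and 3.29%. In the sites below, capitals mark the fixed letters of the ER stress element, in the orientation of the motif. In Calr, Creld2 and the second Hsp90b1 site the motif lies on the strand opposite to the gene.
Hspa5 chr2:34772025-34772043 plus strand: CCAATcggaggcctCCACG
Creld2 chr15:88819520-88819538 minus strand: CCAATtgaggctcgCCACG
Calr chr8:84847075-84847093 plus strand: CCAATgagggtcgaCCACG
Hsp90b1 chr10:86705638-86705656 minus strand: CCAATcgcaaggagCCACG
Hsp90b1 chr10:86705533-86705551 plus strand: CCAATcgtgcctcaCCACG
Dnajc3 chr14:118937827-118937845 plus strand: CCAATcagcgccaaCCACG
Pdia6 chr12:17266491-17266509 plus strand: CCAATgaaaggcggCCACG
Syvn1 chr19:6046532-6046550 plus strand: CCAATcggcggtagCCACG
Acacb chr5:114165431-114165449 plus strand: CCAATagccttgccCCACG

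The whole Hspa5 window is printed to show where the element lies. It ends 50 bases after the RefSeq start, on the plus strand of chr2:34771840-34772139, with the element in capitals.
Hspa5 promoter: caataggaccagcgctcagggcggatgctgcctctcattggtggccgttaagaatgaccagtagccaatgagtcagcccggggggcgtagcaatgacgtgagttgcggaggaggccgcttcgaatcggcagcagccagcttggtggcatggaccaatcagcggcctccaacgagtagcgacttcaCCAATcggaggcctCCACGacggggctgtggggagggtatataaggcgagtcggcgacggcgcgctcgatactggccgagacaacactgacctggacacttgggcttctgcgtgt

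Lipid synthesis genes also cycled mainly in BMKO livers. Of 18 fatty acid synthesis genes tested, 11 were rhythmic in BMKO and 4 in WT, against 5.77% and 8.09% of all genes. The rhythm was BMKO only for 8, against 2.5% of all genes: Acacb, Acly, Acss2, Elovl6, Fasn, Gpam, Me1 and Srebf1. The BMKO-only count was 8 without the shallow libraries and 4 without replicate 2. The rhythm difference was called for 12 of the 18, against 6.72% of all genes. Of the 12, 9 had the larger amplitude in BMKO and 3 in WT, and the WT-only genes were Elovl3 and Fads2. Daily means were higher in BMKO for 2 of the 18 and lower for 11, against 34.1% and 38.5% of all genes. Srebf1 encodes the insulin-responsive transcription factor SREBP1 and had 2.58, 36.1 and 145 RPM in BMKO livers, against 35.1, 94.5 and 204 RPM in WT livers. The lowest value came from the shallow ZT 6 library, and the other BMKO libraries at ZT 6 had 16.6 and 12.2 RPM. At ZT 18 the BMKO libraries had 68.1, 90.6 and 145 RPM and overlapped with 47.3, 88.9 and 103 RPM in WT. The amplitude was 1.53 ± 0.18 in BMKO with a peak at ZT 19.8 ± 0.46 h and 0.30 ± 0.21 in WT (adjusted p 0.000473), and the daily mean was lower in BMKO (−1.42 ± 0.21 log2).

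Acly, Acacb and Fasn peaked later in BMKO livers than Srebf1, and peaks of the other enzymes are not given here. Acly, which makes cytosolic acetyl-CoA from citrate, had 53.3, 145 and 500 RPM in BMKO livers and 107, 205 and 468 RPM in WT livers. Its amplitude was 1.22 ± 0.14 with a peak at ZT 1.297 h in BMKO and 0.31 ± 0.14 in WT (adjusted p 5.23e-05). Acacb had amplitudes of 1.23 ± 0.17 in BMKO, peaking at ZT 3.53 h, and 0.47 ± 0.13 in WT (adjusted p 2.99e-05). Fasn, the fatty acid synthase, which was chosen after its values were seen, had amplitudes of 1.23 ± 0.18 in BMKO (peak ZT 22.1 h) and 0.48 ± 0.18 in WT (adjusted p 0.000425).

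Of 25 cholesterol synthesis and uptake genes, 14 were rhythmic in BMKO livers and 6 in WT livers, against 5.77% and 8.09% of all genes. In 15 the rhythm differed, against 6.72% of all genes, and all 15 had the larger amplitude in BMKO (4.75% of all genes). Acat2, Dhcr7, Insig1, Lss, Mvd and Sc5d were among the 8 BMKO-only genes, against 2.5% of all genes. That count was 10 without the shallow libraries and 1 without replicate 2, and the 15 differences became 6. Daily means were higher in BMKO for 18 of the 25 and lower for 3, against 34.1% and 38.5% of all genes. Sc5d, a late enzyme of cholesterol synthesis, had 176, 428 and 785 RPM in BMKO livers, against 458, 561 and 768 RPM in WT livers, ranges that overlapped. Its amplitude was 0.77 ± 0.10 in BMKO and 0.19 ± 0.06 in WT (adjusted p 5.23e-05).

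Genes that insulin and fasting control split between the groups. Depp1, a FOXO target expressed in fasting, had 0.498, 63.8 and 176 RPM in BMKO livers, against 19.1, 47.1 and 172 RPM in WT livers. In BMKO it was high in the light phase without food, with 153, 173 and 91.6 RPM at ZT 2, and low at ZT 14, with 1.76, 0.498 and 5.24 RPM. The WT libraries at ZT 14 had 75.6, 31.5 and 39.7 RPM, all above BMKO. The amplitude was 2.71 ± 0.24 in BMKO, the largest amplitude difference of the BMKO-only genes named, and 0.52 ± 0.22 in WT (adjusted p 0.00033, and 0.0875 without replicate 2). G6pc, the glucose-releasing phosphatase, had amplitudes of 0.98 ± 0.09 in BMKO (peak ZT 17.4 h) and 0.18 ± 0.13 in WT (adjusted p 0.000193). Of 16 insulin and FOXO genes 7 were rhythmic in BMKO and 4 in WT, against 5.77% and 8.09% of all genes. The 4 BMKO-only genes were Depp1, G6pc, Irs1 and Pik3r1 (1 without replicate 2), and 2.5% of all genes were BMKO only.

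Angptl8, an insulin-induced inhibitor of lipoprotein lipase, had 5.81, 20.8 and 94.4 RPM in BMKO livers, against 6.91, 16.8 and 41.3 RPM in WT livers. At ZT 22 the BMKO libraries had 60.3, 55.4 and 65.9 RPM, all above 9.63, 19.9 and 17.6 RPM in WT. The amplitude was 1.66 ± 0.15 in BMKO and 0.23 ± 0.23 in WT (adjusted p 0.000333). Tsku, a secreted hepatokine, had amplitudes of 1.55 ± 0.19 in BMKO and 0.42 ± 0.13 in WT (adjusted p 0.00398, and 0.187 without replicate 3).

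Single genes of other functions also had BMKO-only rhythms. Tuba1c, an alpha tubulin, had 85.6, 405 and 763 RPM in BMKO livers, against 123, 182 and 269 RPM in WT livers. At ZT 6 its libraries had 120, 90.0 and 89.0 RPM in BMKO, all below 186, 269 and 208 RPM in WT. At ZT 22 they had 635, 580 and 763 RPM in BMKO, all above 172, 201 and 161 RPM in WT. The amplitude was 1.41 ± 0.08 in BMKO and 0.21 ± 0.08 in WT (adjusted p 3.4e-09), and the call held under every alternative run. Alpha tubulin genes are close copies, so reads shared with a paralog could be counted here. Alas1, which catalyses the first and limiting step of heme synthesis, had amplitudes of 1.48 ± 0.16 in BMKO with a peak at ZT 16.02 h and 0.57 ± 0.17 in WT (adjusted p 0.000198). Calcoco1, an autophagy receptor of the ER and Golgi, had amplitudes of 1.57 ± 0.14 in BMKO with a peak at ZT 7.13 h and 0.10 ± 0.16 in WT (adjusted p 3.64e-05).

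Of 14 replication and cell cycle genes, 6 were rhythmic in BMKO livers and 6 in WT livers, and 3 of them (Cdkn1a, Mcm2 and Mcm4) in both. The shares of all genes were 5.77%, 8.09% and 1.48%. The helicase genes Mcm5, Mcm6 and Mcm7 had a BMKO-only rhythm and Tk1 a WT-only one. Mcm6, a helicase subunit, had 2.21, 7.03 and 38.9 RPM in BMKO livers, against 1.77, 3.23 and 6.49 RPM in WT livers. The BMKO libraries at ZT 2 had 7.60, 28.0 and 38.9 RPM and those of WT 1.77, 3.28 and 2.53 RPM. Mcm6 amplitudes were 1.296 ± 0.24 in BMKO and 0.24 ± 0.13 in WT (adjusted p 0.00217, but 0.229 and 0.101 without replicates 2 and 3). Of 34 ribosome biogenesis genes, 9 were rhythmic in BMKO and none in WT, against 5.77% and 8.09% of all genes. The difference was called for 6, against 6.72% of all genes, of which 1 was left without replicate 1 and none without replicate 2 or 3.

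The 182 rhythms found in both arms (1.48% of genes tested) divided into 68 whose difference was not called and 114 whose difference was. Of the 68, 67 peaked within 4 h of each other, which the class rule favours, since distant peaks make a called difference likely. In 41 the peak was later in BMKO, and the median difference over the 68 was 1.05 h. Their median amplitude was 0.60 in BMKO and 0.48 in WT. A difference that was not called does not show that the 2 rhythms are equal.

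Per1 had 1.58, 4.90 and 23.7 RPM in BMKO livers, against 0.730, 4.23 and 14.1 RPM in WT livers. At ZT 14 its libraries had 23.7, 13.5 and 16.7 RPM in BMKO and 6.74, 14.1 and 10.3 RPM in WT. Amplitudes were 1.21 ± 0.13 in BMKO and 1.31 ± 0.19 in WT, and the peaks were at ZT 13.7 ± 0.42 h and ZT 12.6 ± 0.54 h (adjusted p of the difference 0.556). Ppard, the nuclear receptor PPAR delta, kept its rhythm at different levels, with 5.81, 28.5 and 40.1 RPM in BMKO livers, against 1.61, 3.16 and 16.1 RPM in WT livers. It peaked at ZT 20.3 ± 0.56 h in BMKO and ZT 20.2 ± 0.45 h in WT, with amplitudes of 0.83 ± 0.12 and 0.86 ± 0.10 (adjusted p 0.98), while the daily mean was 2.47 ± 0.12 log2 higher in BMKO (adjusted p 8.36e-18).

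St3gal5, the ganglioside GM3 synthase, had 62.7, 131 and 356 RPM in BMKO livers, against 137, 273 and 853 RPM in WT livers. Its peaks were at ZT 12.93 h in BMKO and ZT 12.96 h in WT, with amplitudes of 0.93 ± 0.10 and 1.14 ± 0.09 (adjusted p 0.596). Pck1, the gluconeogenic enzyme PEPCK, had 128, 637 and 1554 RPM in BMKO livers, against 435, 1083 and 2912 RPM in WT livers. Its amplitude was 1.18 ± 0.15 with a peak at ZT 15.6 h in BMKO and 0.78 ± 0.16 with a peak at ZT 13.5 h in WT (adjusted p 0.194). Syt1, a vesicle fusion gene, peaked at ZT 8.44 h in BMKO and ZT 7.75 h in WT (adjusted p 0.768). Foxo1, also a fasting regulator, was in the same class.

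**Figure D4:**
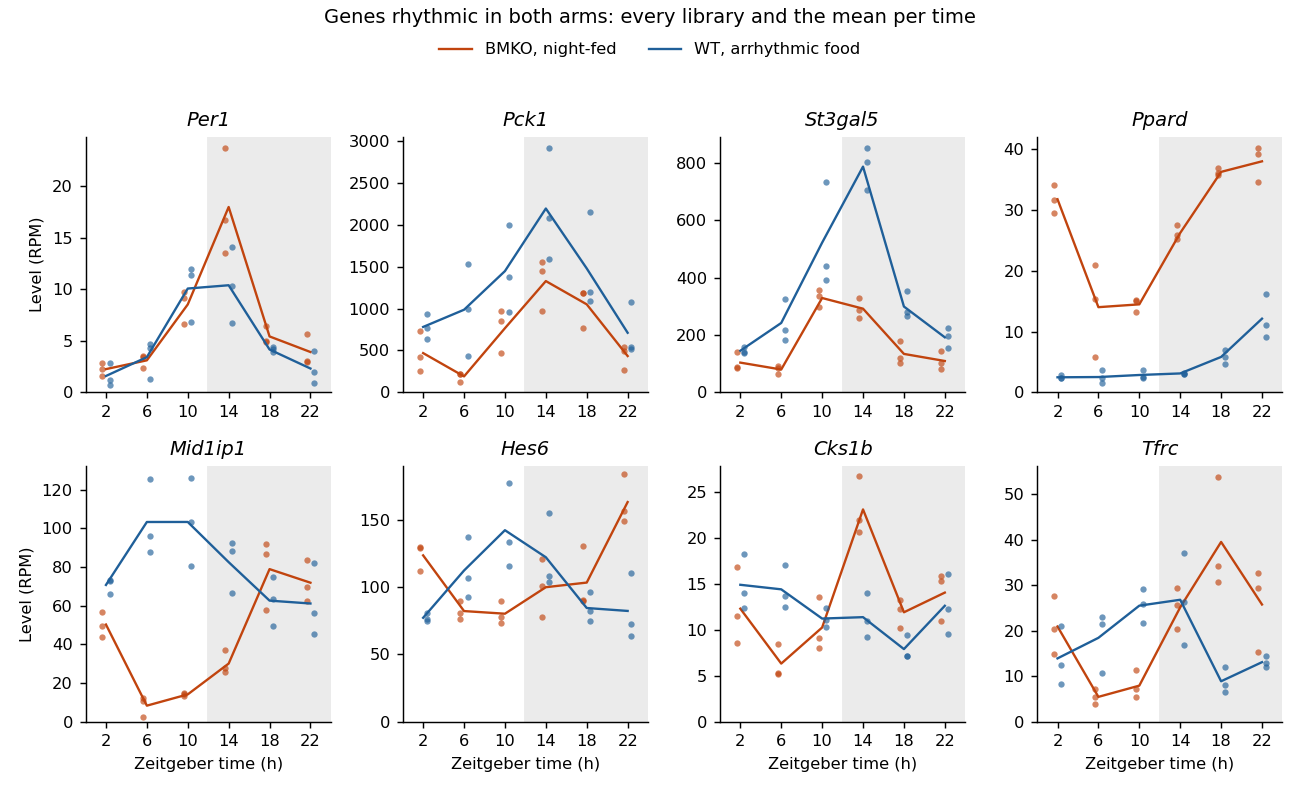
RPM (vertical axes, from 0) against zeitgeber time (horizontal axes, h) for 8 genes rhythmic in both arms. Points are single libraries, 3 per time and arm, lines join the means, and grey marks the dark phase. Fitted peaks in BMKO and WT arrhythmic livers lie at most 2.09 h apart for Per1, Pck1, St3gal5 and Ppard, and 9.22 to 11.5 h apart for Mid1ip1, Hes6, Cks1b and Tfrc (the difference for Cks1b was not called without replicate 2, adjusted p 0.104).

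The 114 shared rhythms with a called difference were mostly rhythms at another time of day, which the class rule likewise favours. In 92 the peaks lay over 4 h apart, later in BMKO for 57 and earlier for 35, and in 33 they lay over 8 h apart. Mid1ip1, an activator of acetyl-CoA carboxylase, had 2.26, 40.5 and 92.1 RPM in BMKO livers, against 45.3, 77.6 and 126 RPM in WT livers. At ZT 6 its libraries had 2.26, 10.6 and 12.2 RPM in BMKO and 96.3, 126 and 87.9 RPM in WT, the first BMKO value being from the shallow library. At ZT 18 they overlapped, with 86.9, 57.8 and 92.1 RPM in BMKO and 74.8, 49.6 and 63.6 RPM in WT. The amplitude was 1.65 ± 0.16 in BMKO with a peak at ZT 20.1 ± 0.37 h and 0.44 ± 0.09 in WT with a peak at ZT 8.68 ± 0.76 h (adjusted p 6.18e-08).

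Thrsp, a lipogenesis regulator, peaked at ZT 22.1 ± 0.75 h in BMKO and ZT 12.4 ± 0.55 h in WT (adjusted p 2.97e-05), with a lower daily mean in BMKO (−2.35 ± 0.20 log2). Tfrc, the transferrin receptor, peaked at ZT 19.2 ± 0.41 h in BMKO and ZT 9.94 ± 0.82 h in WT (adjusted p 2.05e-06). Por, the electron donor of cytochromes P450, had amplitudes of 0.50 ± 0.12 in BMKO with a peak at ZT 20.1 h and 1.07 ± 0.06 in WT with a peak at ZT 13.2 h (adjusted p 1.88e-06).

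Some shared rhythms were close to opposite phase. Hes6, a transcriptional regulator, had the same amplitude in each arm, 0.45 ± 0.08 in BMKO with a peak at ZT 22.04 ± 0.65 h and 0.45 ± 0.08 in WT with a peak at ZT 10.6 ± 0.73 h (adjusted p 2.48e-05). Akr1c19, an aldo-keto reductase gene, peaked at ZT 3.23 ± 0.61 h in BMKO and ZT 14.5 ± 0.46 h in WT (adjusted p 1.15e-06). Tsc22d1, a transcription regulator, peaked at ZT 17.5 h in BMKO and ZT 4.27 h in WT (adjusted p 5.23e-05). Cdkn1a, the cell cycle inhibitor p21, had 59.8, 112 and 297 RPM in BMKO livers, against 2.17, 17.8 and 87.2 RPM in WT livers. It peaked at ZT 13.6 ± 0.43 h in BMKO and ZT 18.8 ± 0.41 h in WT, with amplitudes of 0.86 ± 0.10 and 1.76 ± 0.19 (adjusted p 1.47e-05).

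Heat shock genes were, by count, the listed group with the most rhythms in both arms. Of 20 genes, 13 were rhythmic in BMKO livers, 14 in WT livers and 10 in both, against 5.77%, 8.09% and 1.48% of all genes. In 7 the rhythm differed, against 6.72% of all genes, all with the larger amplitude in BMKO (4.75% of all genes). Without replicate 1, 2 or 3 the number rhythmic in both was 5, 3 and 3, and the number of differences 6, 2 and 3. Hsph1, a chaperone of the heat shock 110 family, had 4.52, 24.8 and 78.5 RPM in BMKO livers, against 19.8, 30.0 and 70.3 RPM in WT livers. At ZT 6 the libraries had 4.52, 7.62 and 6.96 RPM in BMKO, all below 22.7, 21.1 and 19.8 RPM in WT, while at ZT 14 they overlapped. Amplitudes were 1.49 ± 0.12 in BMKO and 0.61 ± 0.07 in WT, with peaks at ZT 17.9 h and ZT 15.9 h (adjusted p 5.59e-05). Fkbp4, an HSP90 co-chaperone, peaked at ZT 21.5 ± 0.37 h in BMKO and ZT 16.5 ± 0.85 h in WT (adjusted p 2.36e-05). Cirbp, a cold-inducible RNA-binding protein whose transcript opposes the heat shock genes over the day, peaked at ZT 6.91 h in BMKO and ZT 4.13 h in WT (adjusted p 0.0093, but 0.188 and 0.109 without replicates 2 and 3), and its highest BMKO value, 97.2 RPM, was in the shallow ZT 6 library.

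The classes were placed in 4 further arms of 18 libraries each: WT night-fed, BMKO night-fed with vehicle injection, WT fed ad libitum and WT night-fed with vehicle injection. Of the 307 BMKO-only genes, 186 (60.6%) were rhythmic in night-fed WT livers, where 22% of all genes were, and 159 of these peaked within 4 h of the BMKO peak. In vehicle-injected BMKO livers 140 (45.6%) were rhythmic, against 5.58% of all genes, and all 140 peaked within 4 h of the BMKO peak. In vehicle-injected night-fed WT livers 147 (47.9%) were, against 15.2% of all genes, and in ad libitum WT livers 90 (29.3%), against 16.9%.

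Of the 187 WT-only genes, 145 (77.5%) were rhythmic in ad libitum WT livers and 137 (73.3%) in night-fed WT livers, against 16.9% and 22% of all genes. Of these, 140 and 131 peaked within 4 h of the peak under arrhythmic feeding. In vehicle-injected BMKO livers 17 (9.09%) were rhythmic, against 5.58% of all genes. The 68 shared genes without a called difference were rhythmic in 62 cases (91.2%) in night-fed WT, 54 (79.4%) in ad libitum WT and 35 (51.5%) in vehicle-injected BMKO livers. The shares of all genes in these arms were 22%, 16.9% and 5.58%. Of the 92 shared genes with peaks over 4 h apart, 73 were rhythmic in night-fed WT livers. The WT night-fed peak lay within 4 h of the BMKO peak alone for 11, of the WT arrhythmic peak alone for 31, of both for 24 and of neither for 7.

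**Figure D5:**
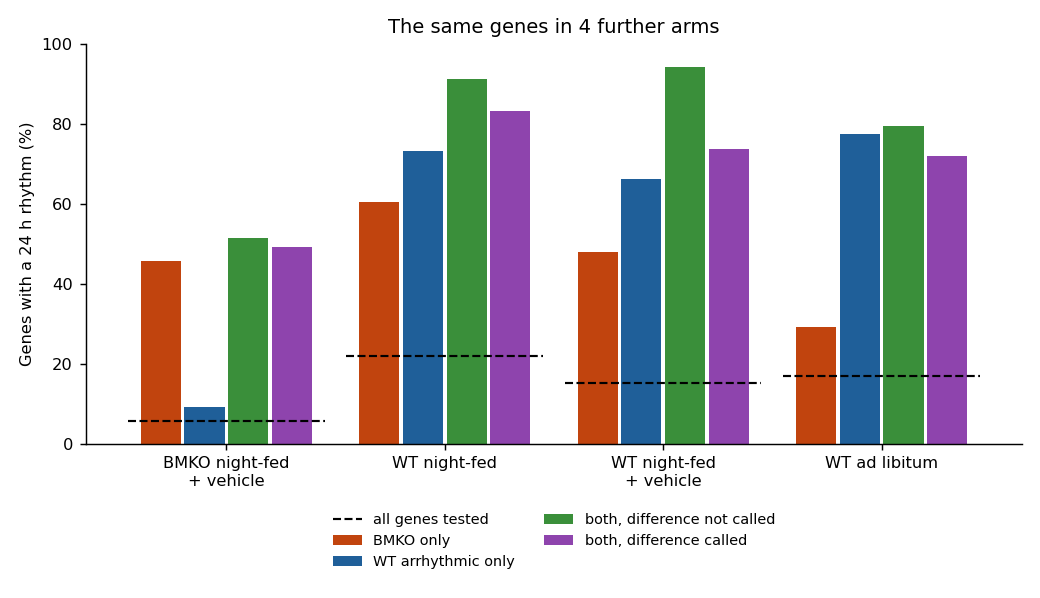
Share of genes in each rhythm class (vertical axis, percent) that were rhythmic in 4 arms not used to define the classes, with dashed lines at the share of all genes tested. In vehicle-injected BMKO livers the bars stand at 45.6% for BMKO-only and 9.09% for WT-only genes, and in ad libitum WT livers at 29.3% and 77.5%.

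Single genes varied around these shares. Hspa5 cycled in night-fed WT livers (amplitude 0.62, peak ZT 18.2 h, adjusted p 1.0e-06) and vehicle-injected BMKO livers (0.88, ZT 19.2 h, 0.0047), while its ad libitum WT rhythm was not called (0.19, adjusted p 0.20). Dbp cycled in all 3 further WT arms with amplitudes of 3.16 each, and not in vehicle-injected BMKO livers (0.37, adjusted p 0.12). Slc25a25, a mitochondrial carrier gene, cycled in both BMKO arms by 1.51 and 1.47 but was not called in night-fed WT livers (0.23, adjusted p 0.50).

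Daily means differed far more widely than rhythms. They were higher in BMKO for 4193 genes (34.1%) and lower for 4736 (38.5%), and 2583 and 3006 of these differed by at least 1.5-fold. Over genes of at least 5 RPM the order turned, with 3408 higher and 3347 lower. Tox2, a nuclear HMG-box factor, had 53.3, 91.97 and 170.2 RPM in BMKO livers, against 0.0962, 0.501 and 3.69 RPM in WT livers, 6.28 ± 0.16 log2 higher. Gstm2, a glutathione transferase, had 618, 921 and 1163 RPM in BMKO livers, against 32.4, 56.1 and 79.9 RPM in WT livers. Mme, the peptidase neprilysin, had 0, 0.545 and 2.01 RPM in BMKO livers, against 17.4, 35.6 and 55.5 RPM in WT livers, a difference of −4.99 ± 0.18 log2. None of these 3 overlapped between arms, which their choice for a large daily mean difference favours. The share of all genes tested without overlap is not given here. Gstm2 and Mme had no rhythm called in BMKO or WT, and Tox2 was rhythmic in BMKO alone by its own test without a called difference (adjusted p 0.976). Mup15 and Mup17, which were also among the lowest, belong to a family of near-identical copies and their single values are uncertain. Among the rhythm classes the split was 136 higher and 81 lower of 307 BMKO-only genes, 94 and 63 of 187 WT-only genes, 26 and 26 of 68 shared genes without a called difference, and 48 and 41 of 114 with one.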

How the data were processed

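Livers were profiled with a QuantSeq 3′ mRNA kit, and per the submitters' processing notes STAR 2.7.3a, SAMtools and the build mm10 (GRCm38.p6) were used. How reads were counted, with which annotation and normalization, is not given in the sources used here. Values as deposited are a signal that the authors made by dividing read counts by a factor per library, as the values themselves show: every value came out as a whole read count within 0.01 read (100% of values). Of 234 value columns, 108 were used and 126 were not. Samples were grouped by their labels.

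From the recovered reads, TMM factors (edgeR 4.0.16) were computed over the 108 libraries, and limma 3.58.1 (R 4.3.3) with a mean-variance trend was run on log2 of RPM plus a pseudocount of 0.5, for genes averaging 1 RPM or more over the 36 libraries (12304 of 15907). Fold changes on this scale understate changes of genes with few reads. Each arm and time had its own mean. Rhythms were tested jointly on the cosine and sine terms of a 24 h period in an arm alone, rhythm differences likewise between arms, and daily means with equal weight for every time, each adjusted by Benjamini and Hochberg over all genes at a threshold of 0.05. Standard errors of amplitude and peak are delta-method values. Scripts were tested on simulated data.

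Members and gene lists were chosen with earlier results of these data known. The 27 lists of pathways and 9 lists of cell markers held 520 genes, of which 481 were tested. Named genes are Arntl and the clock lists, the 10 of largest amplitude difference in each 1-arm class, the 10 shared without and 8 shared with a called difference of largest amplitude or peak shift, up to 4 members of each other list by adjusted p, and the 6 highest and 6 lowest daily means, all with at least 5 RPM in an arm; Fasn and single names in lists of members fall outside this rule. Genes named for their daily mean also had to lie on 1 side of WT at each sampled time. Results for some genes are left out of the text. Positions are from GENCODE M21 (GRCm38) and promoters from RefSeq. Same-numbered libraries of the 2 arms did not deviate together, as the pairing check showed (median correlation −0.00964, 1 of 18 pairs over 0.1), so replicate numbers were not used as a block. Within BMKO, same-numbered libraries of different times had a median correlation of 0.0545 (11 of 45 pairs over 0.1), against −0.0126 for other numbers (2 of 90). The 17 alternatives included edgeR and DESeq2 1.42.0 on the recovered reads, other scalings, filters and pseudocounts, a pooled spread, leaving out the 2 shallow libraries and leaving out each replicate number.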

Additional observations from a re-analysis of the deposited data

Results flagged for a closer look

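The 24 h rhythm differed between BMKO night-fed and WT arrhythmic livers for 827 genes by the test of the difference itself, and this is the comparison the report turns on. Among genes rhythmic in both arms with a called difference, 33 had peaks over 8 h apart, Mid1ip1, Hes6 and Akr1c19 among them. Genotype and feeding differ together in both results and cannot be told apart.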

How the results depend on the processing

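The order of paired counts was not stable: rhythmic genes in BMKO outnumbered those in WT under 4 alternatives (a pooled spread, DESeq2, without the shallow libraries and without replicate 1), BMKO-only and WT-only rhythms were 32 and 33 without replicate 2, and with a mean of at least 5 RPM daily means were higher for 3408 genes and lower for 3347. With DESeq2 on the recovered reads the rhythmic genes in BMKO were 1302 in place of 710, the rhythm differences 1334 in place of 827, the rhythms in both arms 344 in place of 182, those in BMKO only 521 in place of 307, and the share of BMKO-only genes rhythmic in vehicle-injected BMKO livers 33.2% in place of 45.6%, while 68.8% in place of 77.5% of WT-only genes were rhythmic in ad libitum WT livers. A pooled spread gave 1885 rhythmic genes in BMKO and 378 in WT, 516 BMKO-only and 112 WT-only rhythms, and shares of 35.5% in vehicle-injected BMKO and 86.6% in ad libitum WT livers. Without the 2 shallow libraries there were 1207 rhythmic genes in BMKO, 284 in both arms and 501 in BMKO only, 1236 rhythm differences, and shares of 40.5% and 70.1%. A minimum fold of 1.5 left 5589 of 8929 daily mean differences. Leaving out a replicate number gave 66 to 542 rhythmic genes in BMKO, 229 to 435 in WT, 117 to 603 differences, 18 to 96 in both arms, 32 to 228 in BMKO only, 33 to 129 in WT only, 7864 to 8359 daily means, and shares of 50.4% to 78.1% and 83.7% to 100%, with fewer libraries by construction. The replicate block gave 716 rhythmic genes in BMKO, 976 in WT, 813 differences, 298 BMKO-only and 175 WT-only rhythms, and the block within each arm gave 908 differences, 311 BMKO-only and 193 WT-only rhythms and 8970 daily means. Of 94 called rhythm differences of named genes, 76, 46 and 64 kept the call without replicates 1, 2 and 3, and the other alternatives lost 0 to 7. Otherwise the cause was not tested. The DESeq2 size factors gave a median daily mean difference of −0.12 log2 in place of −0.06, and a mean of at least 5 RPM gave 0.00106.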
